A study of Mus musculus with 9 samples.

Results

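Ribosome production was examined through 40 genes of ribosome biogenesis and the nucleolus in mouse germinal center (GC) B cells, which proliferate in follicles after meeting antigen while their immunoglobulin genes mutate. The genes were taken by name, and each was read from its brightest probe set that carries a single gene symbol. Of the 40 genes, 39 were measured among 10331 genes tested, and Npm3 was not analysed here. The 39 genes reached the median signal of the array on every array, so none entered the test through 1 genotype alone. The members were named with earlier results of these data known.

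Spleen GC B cells (B220 high, PNA high, CD95 high) were sorted from 10-week-old mice on day 12 of immunization with sheep red blood cells, and RNA was read on 9 Affymetrix Mouse 430.2 arrays. The groups were FOXO1f/f (KO, 2 floxed alleles), FOXO1f/+ (HET, 1 floxed allele) and FOXO1+/+ (WT, 0 floxed alleles), with 3 arrays each. All animals, WT included, carried Cg1-Cre, a recombinase expressed from the IgG1 constant region locus, which is switched on when B cells are activated. The labels assign 1 animal to each array, while the series' design text speaks of pooled spleen cells. The values are MAS5 signals, a summary of each probe set on a linear scale, after which every array has a trimmed mean of 500. Because a set amount of RNA was amplified for each array (the labels and the design text differ on that amount) and arrays were scaled in this way, a change in the amount of RNA per cell cannot be read from these data. In sorted bulk cells, fewer cells of a type and less RNA per cell also cannot be told apart.

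Ribosome biogenesis starts in the nucleolus, where RNA polymerase I copies the ribosomal RNA genes. Small nucleolar ribonucleoproteins (snoRNPs) modify the transcript, and separate sets of factors fold and cut it into the small and the large ribosomal subunit. The factor MYC, which binds DNA as a dimer with MAX at the E-box motif, is a known activator of many of these genes in dividing cells, including GC B cells. FOXO1, the factor targeted here, is a forkhead protein that PI3K and AKT signaling keep out of the nucleus.

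The targeted gene checked the labels. Foxo1 had signals of 983, 1392 and 727 on the KO arrays, 3633, 3581 and 3479 on the HET arrays and 5432, 5299.9 and 5616 on the WT arrays, so the 3 genotypes did not overlap. Its KO mean was 19.0% of the WT mean, with a log2 change of -2.45 (SE 0.16, limma adjusted p = 2.41e-06). Of B cell markers, Cd79a, Cd79b, Ms4a1 and Pax5 were measured, and their summed signal was 28572 to 29930 on KO arrays, 29083 to 29894 on HET arrays and 28624 to 30999 on WT arrays. Log2 signals correlated between arrays of a genotype at 0.984 to 0.990 and between genotypes at 0.973 to 0.990.

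KO vs WT, the comparison in the series title, asked whether these genes changed when both Foxo1 alleles were floxed. Few did: Bysl and Nhp2 fell, 0 rose and 37 of 39 did not pass the test. The median log2 change over the 39 genes was -0.087, with values from -0.37 (Bysl) to 0.14 (Ppan). The same median over all genes tested was 0.011. Of all genes tested, 11.9% were called at a limma adjusted p under 0.05, against 5.13% of the 39 genes. By direction, the shares of all genes were 6.09% higher and 5.85% lower. At an unadjusted p under 0.05 there were 6 of 39 genes, against 25.8% of all genes. Changes below 0 were seen for 26 of the 39 genes and above 0 for 13. Of the 10331 genes tested, 4934 lay below 0 and 5397 above. The calls depended on the scaling: with each array centred on its median, which moved all genes by a median of -0.11, 11 of 39 genes were called lower and 0 higher. All genes called then split into 398 higher and 1683 lower, against 629 and 604 in the deposited scale. Of the 13 genes above 0, centring put 11 below 0, and Gar1 and Ppan stayed above.

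The data also bound how far the values on the brightest probe sets could have moved. The 95% confidence interval of the KO vs WT log2 change had a median half-width of 0.18 over the 39 genes, from 0.11 for Ddx21 to 0.41 for Rrp12. The whole interval lay within 0.5 on either side of 0 for 36 of 39 genes and within 1.0, which is a 2-fold change, for all 39. The bound farthest from 0 was -0.58, for Bysl. In the other direction no interval of a brightest probe set went past 0.39. Some intervals of other probe sets reached farther in the fit over all probe sets, to 0.87 for Bop1. Polr1a, Pes1 and Ebna1bp2 (0.68) were among the other genes with such intervals. A uniform shift in scale would move all of these intervals together.

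**Figure D1:**
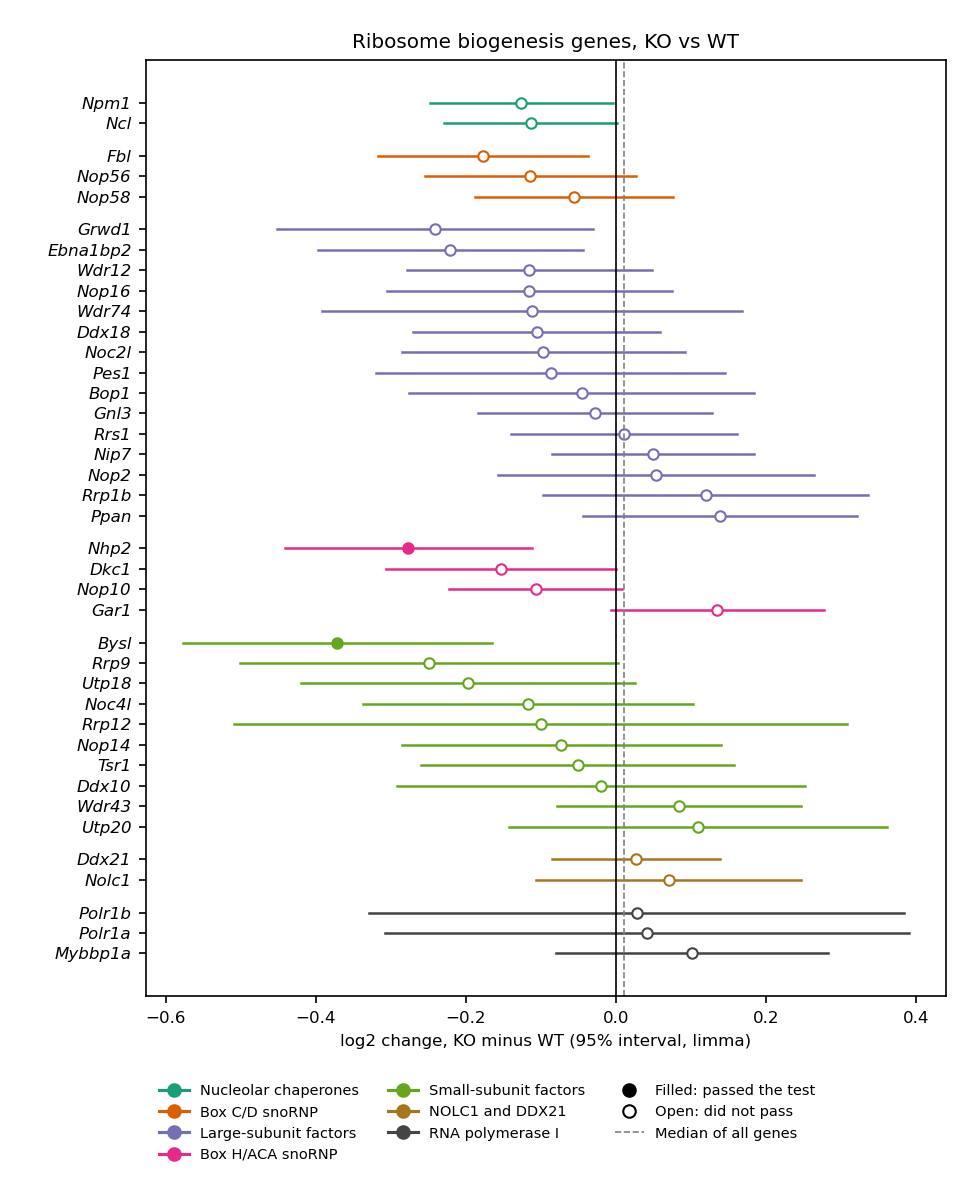
Log2 change of each of the 39 genes, KO minus WT, with the 95% interval from limma, grouped by role; filled points passed the test, and the dashed line is the median of all genes tested (0.011). Bysl (-0.37) and Nhp2 (-0.28) stand lowest, and the other 37 genes are open points.

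Bysl encodes bystin, a factor needed for late steps of small subunit assembly. Its signal was 789, 689 and 872 on KO arrays, 992, 956 and 895 on HET arrays and 965, 1051 and 1015 on WT arrays. All 3 KO arrays lay below all HET and all WT arrays, while HET and WT arrays overlapped. Mean signal in KO was 77.5% of that in WT (log2 change -0.37, SE 0.095, limma adjusted p = 0.0235). The call was lost without KO replicate 1 or 2 or WT replicate 2 or 3 (adjusted p = 0.0528, 0.0809, 0.0898 and 0.0753) and when both probe sets were averaged (-0.23, adjusted p = 0.0690).

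Nhp2 encodes a core protein of the H/ACA snoRNPs, which convert uridines of ribosomal RNA to pseudouridine. Its signal was 1790.4, 1717 and 1702 on KO arrays, 2026, 2097 and 1856 on HET arrays and 1926, 2280.5 and 2119.9 on WT arrays. The KO arrays were again lower than all others, and HET and WT arrays overlapped. The KO mean was 82.3% of WT, with a log2 change of -0.28 (SE 0.076, limma adjusted p = 0.0330). Leaving out KO replicate 1, 2 or 3 or WT replicate 2 or 3 ended the call (adjusted p = 0.0539, 0.0812, 0.0731, 0.138 and 0.0959), as did eBayes without trend (adjusted p = 0.0702). Its second probe set, which lacks the shared-sequence suffix of the brightest, gave -0.15 (adjusted p = 0.450 when used in its place).

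The 250 bases before the annotated start of both genes are shown because these are the genes that passed the test (RefSeq, build GRCm38.p6). Bysl lies on the minus strand at chr17:47611493-47611742, and Nhp2 on the plus strand at chr11:51619523-51619772. Neither stretch holds CACGTG, the E-box bound by MYC and MAX, or GTAAACA, a core motif of FOXO proteins, on either strand, and all letters are therefore in lower case.
Bysl: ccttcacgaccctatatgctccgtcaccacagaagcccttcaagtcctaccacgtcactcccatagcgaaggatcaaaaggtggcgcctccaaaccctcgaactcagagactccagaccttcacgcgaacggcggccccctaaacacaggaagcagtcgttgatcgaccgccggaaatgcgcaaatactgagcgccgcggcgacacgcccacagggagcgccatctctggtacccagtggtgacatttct
Nhp2: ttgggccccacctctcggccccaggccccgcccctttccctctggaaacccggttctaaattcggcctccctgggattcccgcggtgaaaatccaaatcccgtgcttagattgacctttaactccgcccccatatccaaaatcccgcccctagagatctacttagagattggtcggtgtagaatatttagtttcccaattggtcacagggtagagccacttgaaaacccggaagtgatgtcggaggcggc

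The same motifs were searched in RefSeq promoter windows of 300 bases, from 250 before to 50 after the start. Windows were held for 35 of the 40 genes. CACGTG, which reads the same on both strands, was present for 8 of these 35 genes (22.9%), against 12.1% of the tested genes with a window and 8.09% of all genes with a window. GTAAACA or its reverse complement was present for 1 of 35, Rrp1b (2.86%), against 3.20% of the tested genes and 4.05% of all genes. Neither motif contains the other. A match is a description of the letters and not a measured binding site.

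The 8 E-boxes are shown with up to 12 bases on each side, since they are the motif of the known activator of this gene group; CACGTG is in capitals. Nop2 (chr6:125131811-125131840, plus strand) and Utp18 (chr11:93885769-93885798, minus strand) have it 60 and 20 bases before the start. Pes1 (chr11:3963965-3963994, plus), Wdr43 (chr17:71616220-71616249, plus) and Tsr1 (chr11:74898092-74898121, plus) have it 2, 17 and 24 bases after the start. Grwd1 (chr7:45830740-45830767, minus), Utp20 (chr10:88826765-88826789, minus) and Mybbp1a (chr11:72441355-72441376, plus) have it 34, 37 and 40 bases after the start.
Nop2: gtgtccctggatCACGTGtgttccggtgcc
Utp18: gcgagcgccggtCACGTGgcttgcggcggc
Pes1: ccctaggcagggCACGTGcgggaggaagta
Wdr43: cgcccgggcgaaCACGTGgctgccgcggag
Tsr1: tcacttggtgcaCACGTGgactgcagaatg
Grwd1: gggccggagtcgCACGTGtgaaaccgga
Utp20: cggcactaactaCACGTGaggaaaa
Mybbp1a: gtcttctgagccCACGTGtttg
The KO vs WT log2 changes of these 8 genes ran from -0.24 (Grwd1) to 0.11 (Utp20), and 0 of 8 passed the test. The other 26 measured genes with a window ran from -0.37 to 0.14 and included Bysl and Nhp2.

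Of RNA polymerase I genes, 0 of 3 passed, and all 3 had values above 0 in the deposited scale and below 0 with arrays centred on their median (quantile normalization also put Polr1a and Polr1b below 0). Mybbp1a, whose protein associates with the polymerase, had signals of 5953, 5613 and 5113 on KO arrays, 4369, 5502 and 4936 on HET arrays and 4862, 5184 and 5494 on WT arrays, and the genotypes overlapped. Its log2 change was 0.10 (95% interval -0.080 to 0.28, limma adjusted p = 0.495). Polr1a, the largest subunit, averaged 267 ± 50.6 in KO, 252.4 ± 39.1 in HET and 257 ± 19.6 in WT cells (SD, n = 3). Polr1b, the second largest subunit, averaged 160 ± 24.6 in KO, 153 ± 19.2 in HET and 155 ± 0.680 in WT cells (SD, n = 3). For both subunits the intervals of the KO vs WT change on the brightest probe sets reached from about -0.3 to 0.4. They were -0.31 to 0.39 for Polr1a and -0.33 to 0.38 for Polr1b. The interval of another Polr1a probe set reached farther above 0.

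The abundant nucleolar proteins nucleolin and nucleophosmin had values slightly below 0 that did not pass. Npm1, which encodes nucleophosmin, a chaperone of histones and ribosomal proteins, had signals of 7996, 8475 and 7848 on KO arrays, 9365, 8923 and 9259.6 on HET arrays and 8298, 8694 and 9581 on WT arrays. KO arrays lay below HET arrays and overlapped WT arrays. The KO vs WT log2 change of Npm1 was -0.13 (SE 0.056, limma adjusted p = 0.180). Ncl, which encodes nucleolin, averaged 6082 ± 403 in KO, 6539.9 ± 91.7 in HET and 6572 ± 150.2 in WT cells (SD, n = 3), with a log2 change of -0.11 (95% interval -0.23 to 0.0016, limma adjusted p = 0.201).

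The C/D snoRNPs, which methylate the ribose of ribosomal RNA, gave 0 calls of 3 genes, with 3 values below 0. Fbl, the methyltransferase fibrillarin, had signals of 4089, 4072 and 3533 on KO arrays, 4449, 4357 and 4419 on HET arrays and 4186, 4602 and 4413 on WT arrays. Every KO array lay below every HET and WT array. Its log2 change was -0.18 (SE 0.064, limma adjusted p = 0.0977) and did not pass. The scaffold proteins Nop56 and Nop58 had log2 changes of -0.11 (adjusted p = 0.297) and -0.056 (adjusted p = 0.627).

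In the H/ACA snoRNP, the partners of Nhp2 did not pass. Dkc1, the pseudouridine synthase dyskerin, averaged 4511 ± 267 in KO, 4947 ± 256 in HET and 5023 ± 444 in WT cells (SD, n = 3; log2 change -0.15, limma adjusted p = 0.196). Nop10 had KO arrays below all WT and HET arrays on its brightest probe set, with a log2 change of -0.11 (adjusted p = 0.229). Its other probe set gave 0.0098. Gar1 was the 1 gene of the 4 above 0, with a log2 change of 0.14 (95% interval -0.0072 to 0.28, adjusted p = 0.219). Nolc1, a snoRNP scaffold, had signals of 2762, 2607 and 2231 on KO arrays, 2403, 2266 and 2590.0 on HET arrays and 2343, 2393 and 2475 on WT arrays, all overlapping (log2 change 0.070, adjusted p = 0.647). Ddx21, a helicase that links polymerase I transcription to processing, had the narrowest interval, -0.085 to 0.14 around a log2 change of 0.026.

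Among 10 small subunit factors, Bysl fell and 9 did not pass, with 8 of 10 values below 0 and a median of -0.087. Rrp9, a protein of the U3 snoRNP, averaged 337 ± 31.2 in KO, 388 ± 33.0 in HET and 400.4 ± 26.3 in WT cells (SD, n = 3), and its KO arrays lay below all WT arrays (log2 change -0.25, limma adjusted p = 0.198). Utp18, a part of the processome that makes the first cuts, had a change of -0.20 (adjusted p = 0.250), also with KO arrays below all WT arrays. Utp20 (0.11), Wdr43 (0.084), Ddx10 (-0.020), Tsr1 (-0.051), Nop14 (-0.073), Rrp12 (-0.10) and Noc4l (-0.12) had overlapping KO and WT arrays.

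Among 15 large subunit factors, 0 passed, with 10 values below 0, 5 above 0 and a median of -0.087. Ebna1bp2, a factor of early large subunit assembly, had signals of 1042, 1048 and 1136 on KO arrays, 1162, 1209 and 1169.6 on HET arrays and 1141, 1371 and 1255 on WT arrays. On the brightest probe set the KO arrays lay below all others, and the log2 change was -0.22 (SE 0.082, limma adjusted p = 0.103). Its other probe set gave 0.31, and the average of both 0.044, so the direction turned with the probe set. Grwd1, a histone-binding protein of the nucleolus, had a change of -0.24 (adjusted p = 0.136) with overlapping arrays. Its change passed the test when KO replicate 2 was left out (adjusted p = 0.0396).

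The trimeric complex of Pes1, Bop1 and Wdr12, which acts on the large subunit precursor, had log2 changes of -0.087, -0.046 and -0.12. Gnl3, the nucleolar GTPase nucleostemin, had -0.028, the RNA methyltransferase gene Nop2 had 0.054 and Rrs1, which helps load the 5S particle, had 0.011. Ppan (0.14), Rrp1b (0.12) and Nip7 (0.049) were the other genes above 0, and Nop16 (-0.12), Wdr74 (-0.11), Ddx18 (-0.11) and Noc2l (-0.097) the others below 0. Of these 13 genes, Nop16 alone had KO arrays that did not overlap the WT arrays.

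Counted by overlap alone, 8 of 39 genes had all KO arrays below all WT arrays and 0 had all KO arrays above. Over all genes tested these shares were 13.5% and 16.2% (29.7% in either direction), against 20.5% and 0% of the 39 genes. The 8 were Bysl, Nhp2, Fbl, Nop10, Nop16, Rrp9, Utp18 and Ebna1bp2.

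**Figure D2:**
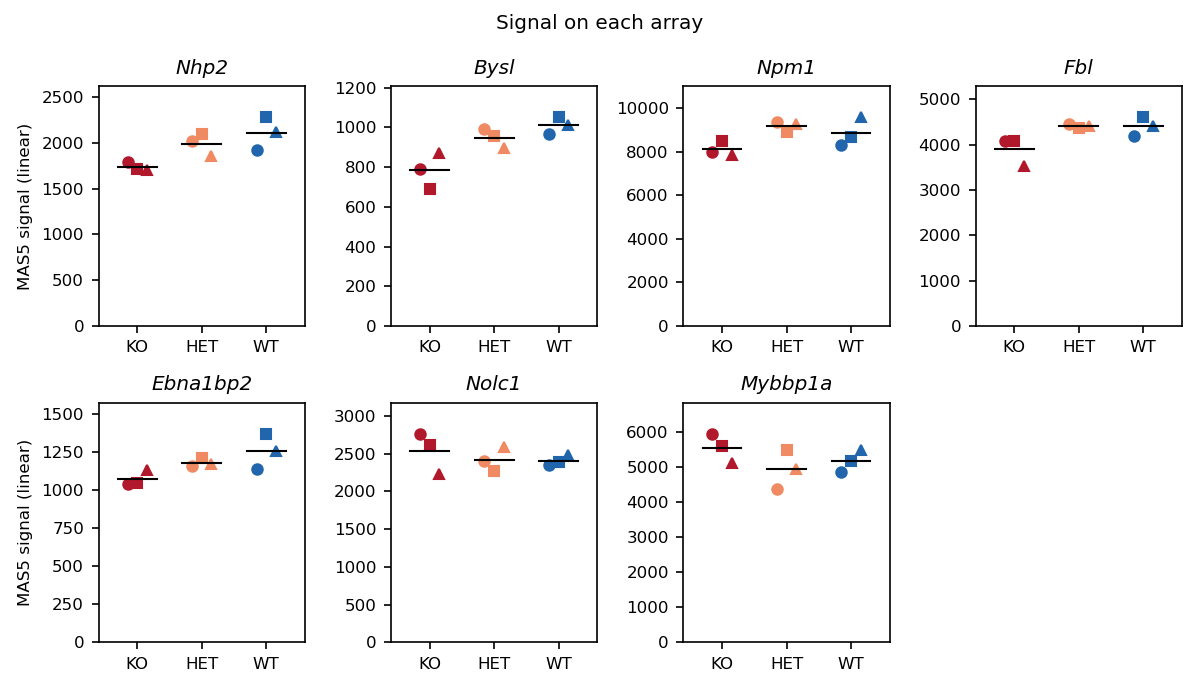
MAS5 signal (linear axis from 0) on each array for Bysl, Nhp2 and the gene of each other role group with the largest moderated t in KO vs WT; circles, squares and triangles are replicates 1, 2 and 3, and lines are means of 3. KO arrays lie below all WT arrays for Nhp2, Bysl, Fbl and Ebna1bp2, and overlap them for Npm1, Nolc1 and Mybbp1a.

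The KO arrays differed among themselves. Each gene's log2 value was set against its own mean over the 9 arrays. The median of the 39 genes was then 0.037, -0.029 and -0.10 on KO replicates 1, 2 and 3, 0.017, 0.020 and 0.036 on HET replicates 1, 2 and 3, and -0.022, 0.029 and 0.051 on WT replicates 1, 2 and 3. KO replicate 3 was therefore low, and KO replicate 1 lay within the range of HET and WT arrays. On KO replicate 3, 35 of 39 genes lay below their own mean, against 49.4% of all genes tested. That array held the lowest value for 19 of the 39 genes, against 13.8% of all genes, and the highest for 0. KO replicate 1 held the highest value for 10 of the 39 genes, among them Nolc1 and Mybbp1a, against 18.3% of all genes. WT replicate 2 also held the highest value for 10, against 10.6% of all genes.

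Without KO replicate 3 the median log2 change of the 39 genes in KO vs WT was -0.043, against 0.016 for all genes, and Bysl was the 1 gene called. Ribosomal protein genes did not share this pattern: their median deviation on KO replicate 3 was 0.010, and on the 9 arrays it ran from -0.062 (WT replicate 1) to 0.12 (WT replicate 3). The 11 measured mitosis genes were lower on every KO array (medians of -0.088, -0.13 and -0.048 on replicates 1, 2 and 3) than on the HET arrays (0.042 to 0.065) and the WT arrays (0.0054 to 0.096). Within a genotype, the log2 SD of the 39 genes had a median of 0.12 in KO, 0.075 in HET and 0.087 in WT cells, against 0.12, 0.11 and 0.11 over all genes.

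**Figure D3:**
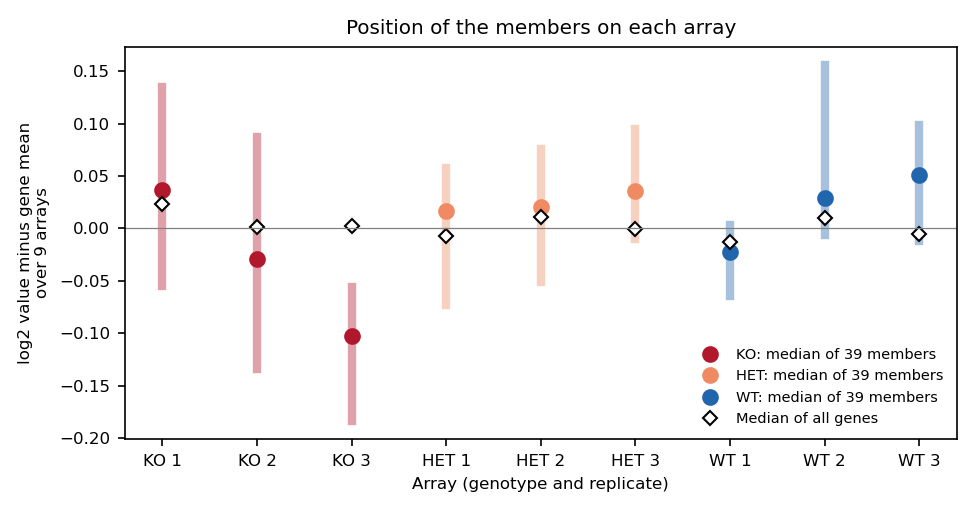
For each array, the median (circle) and middle 50% (bar) over the 39 genes of the log2 value minus the gene's mean over 9 arrays, with the median of all genes as a diamond. KO replicate 3 (-0.10) lies apart, while KO replicate 1 (0.037) lies among the HET and WT arrays.

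The brightest probe set did not always speak for the gene. The 39 genes had 78 probe sets above the filter, of which 2, the brightest of Bysl and of Nhp2, passed a fit over all probe sets (8.19% of 19479 probe sets passed). Of the 39 other probe sets, which belong to 28 genes, 22 had a KO vs WT change of the same sign as the brightest of the gene and 17 of the opposite sign. Agreement was close for Fbl (-0.18 and -0.15) and Nop56 (-0.11 and -0.12). Npm1 kept its sign with a smaller change on the other probe set (-0.13 and -0.058). Wdr43 gave 0.084 on its brightest and -0.21 on its other probe set (adjusted p = 0.0763), Rrs1 0.011 and -0.18, Nip7 0.049 and -0.16, and the second Bysl probe set gave -0.089. Signs were also opposite for Nop16 (-0.12 and 0.38), Utp18 (-0.20 and 0.34), Nop10 (-0.11 and 0.0098) and Ebna1bp2. On the brightest probe sets of these genes the KO arrays lay below all WT arrays.

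The sign followed the signal. Of 12 other probe sets with a mean signal under 300, a limit chosen after the values were seen, 11 had a change above 0, with a median of 0.30 and the highest at 0.48 (Polr1a) and 0.44 (Bop1). Of the 27 brighter ones, 7 were above 0, with a median of -0.066. Over all probe sets above the filter, the medians were 0.090 under a signal of 300 and -0.0029 at or above it. All genes tested showed a gradient in the same direction. In 5 classes of signal, from lowest (2067 genes) to highest (2066 genes), their median changes were 0.11, 0.048, 0.010, 0.0015 and -0.029. These classes held 1, 4, 12, 7 and 15 of the 39 genes, with medians of 0.027, -0.061, -0.10, -0.051 and -0.11. Median signals per array, which are set by dim probe sets, were 47.4 to 48.0 on KO arrays, 44.0 to 44.96 on HET arrays and 42.9 to 44.8 on WT arrays. The part of this difference in scale in the members' values was not tested beyond the alternative scalings given under the processing.

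**Figure D4:**
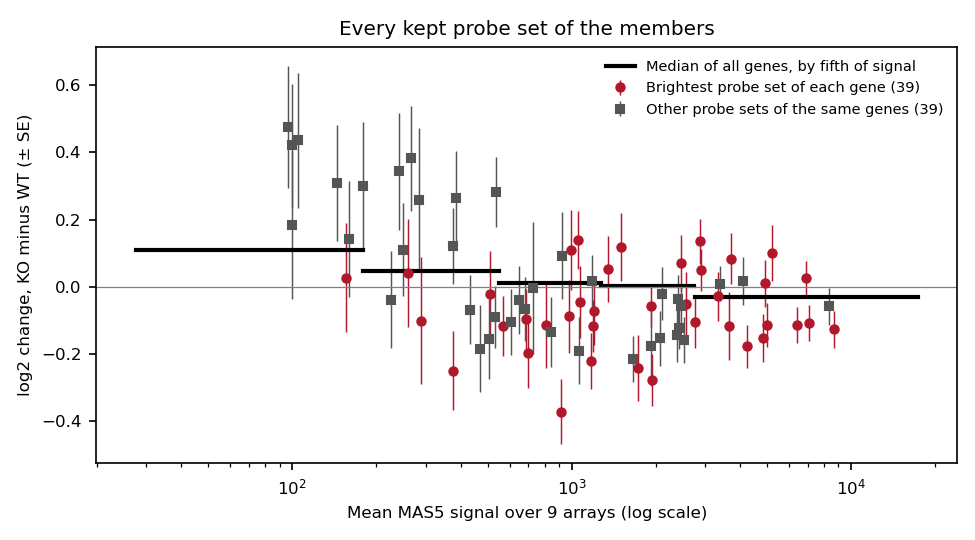
KO vs WT log2 change (± SE) of every probe set of the 39 genes above the filter, against its mean signal on a log axis; black bars are medians of all genes tested in 5 classes of signal. Dim probe sets lie mostly above 0 and bright ones mostly below, and the bars run from 0.11 to -0.029.

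With 1 floxed allele no change passed the test. In HET vs WT limma called 0 of 39 genes, against 0.00968% of all genes tested, and 1 of 39 (Nip7) had an unadjusted p under 0.05, against 4.21% of all genes. The median log2 change was -0.021 (0.0023 over all genes), from -0.12 (Tsr1) to 0.16 (Nip7). Nip7, a factor of late large subunit assembly, averaged 3070 ± 93.0 in HET and 2752 ± 99.9 in WT cells (SD, n = 3; limma adjusted p = 0.998), and its HET arrays lay above all WT arrays. HET arrays lay below all WT arrays for Tsr1 and Noc2l, so 2 genes were lower and 1 higher without overlap, against 4.89% and 4.96% of all genes (9.84% in either direction). The other probe sets gave the opposite sign for Nip7 (-0.071) and Tsr1 (0.056) and the same sign for Noc2l (-0.024). On the brightest probe sets the intervals lay within 0.5 of 0 for 38 of 39 genes, and Rrp12 was the exception.

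KO vs HET, which shares the KO arrays with KO vs WT, gave 0 calls of 39 in limma, with 5 genes at an unadjusted p under 0.05 (23.2% of all genes) and 9.01% of all genes called (4.56% higher and 4.45% lower). The median was -0.073, against 0.010 for all genes. Npm1 had the smallest adjusted p (-0.18, SE 0.056, adjusted p = 0.0676), followed by Bysl (-0.28, adjusted p = 0.0917) and Fbl (-0.18, adjusted p = 0.107). Nhp2 had -0.20 (adjusted p = 0.134). The other probe sets of these genes gave -0.032 for Npm1, -0.0064 for Bysl, -0.12 for Fbl and -0.16 for Nhp2. KO arrays lay below all HET arrays for 8 of 39 genes and above them for 1, Ppan, against 13.1% and 14.5% of all genes. In the test of HET against the midpoint of KO and WT, 0 of 39 genes passed, against 0.997% of all genes. At an unadjusted p under 0.05 there were 2, against 10.8% of all genes. Over all genes, the value farthest above the midpoint was 3.35, for the Y chromosome gene Eif2s3y. The sex of the animals was not examined here.

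Other lists of ribosome production placed these values. Of 41 other small subunit factors, 0 passed in KO vs WT (4 at an unadjusted p under 0.05; median -0.0055), and of 11 other polymerase I genes 0 passed (0 at an unadjusted p under 0.05; median 0.064). Of 41 ribosomal protein genes, limma called 0 (2 at an unadjusted p under 0.05), with a median of -0.026. Several ribosomal protein genes have near-identical copies in the genome, which can share probes.

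Of 43 other large subunit factors, 2 rose, 2 fell and 39 did not pass (median -0.037). Eif6, which keeps the new large subunit from joining the small one too early, fell by 0.27 on the log2 scale (SE 0.060, limma adjusted p = 0.0118), but limma did not call it when WT replicate 2 was omitted (adjusted p = 0.0598), when its probe sets were averaged (adjusted p = 0.209) or when shared-suffix probe sets were dropped (-0.046, adjusted p = 0.900). Ddx31, a helicase, rose by 0.46 (SE 0.13, adjusted p = 0.0364) and Rbm28 by 0.34 (SE 0.098, adjusted p = 0.0394), with calls lost in 8 and 11 of 21 alternatives. Wdr18, named after its value was seen, fell by 0.65 (adjusted p = 0.0455). It was also the lowest of this list in HET vs WT, at -0.49, which did not pass.

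The RNA exosome, which trims the 3' ends of ribosomal RNA precursors, held the largest change among these lists. Of 15 genes, 2 fell and 13 did not pass (median -0.15). Exosc9, a core subunit, had signals of 1221, 1092 and 1076 on KO arrays, 2509.5, 2102 and 2009 on HET arrays and 2189.9, 2320 and 2376 on WT arrays. The KO arrays lay far below the others, and HET and WT arrays overlapped. The KO mean was 49.2% of WT, with a log2 change of -1.02 (SE 0.088, limma adjusted p = 1.52e-05), called under all 21 alternatives. In KO vs HET the change was -0.96 (adjusted p = 3.49e-05), and HET lay above the midpoint of KO and WT by 0.45 (adjusted p = 0.0165). Exosc8 fell by 0.25 (adjusted p = 0.0118), a call that ended when its probe sets were averaged (adjusted p = 0.344).

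Of 19 RNA polymerase III genes, 2 rose, 1 fell and 16 did not pass (median 0.013). Gtf3c4, a subunit of the factor TFIIIC, rose by 0.38 (SE 0.063, limma adjusted p = 0.00192) under all 21 alternatives. Brf2 rose by 0.48 (adjusted p = 0.0297; lost in 9 of 21 alternatives), and the subunit gene Polr3k fell by 0.36 (adjusted p = 0.0170; lost in 5 of 21). Of 23 nucleotide synthesis genes, 2 fell and 21 did not pass. Prps2, which makes the sugar phosphate of nucleotides, averaged 1922 ± 217 in KO, 3037 ± 315 in HET and 3010.4 ± 87.5 in WT cells (SD, n = 3) and fell by 0.65 (SE 0.090, adjusted p = 5.20e-04) under all 21 alternatives. Nme2, whose sequence is close to that of Nme1, fell by 0.16 (adjusted p = 0.0494), a call lost in 16 of 20 alternatives.

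**Figure D5:**
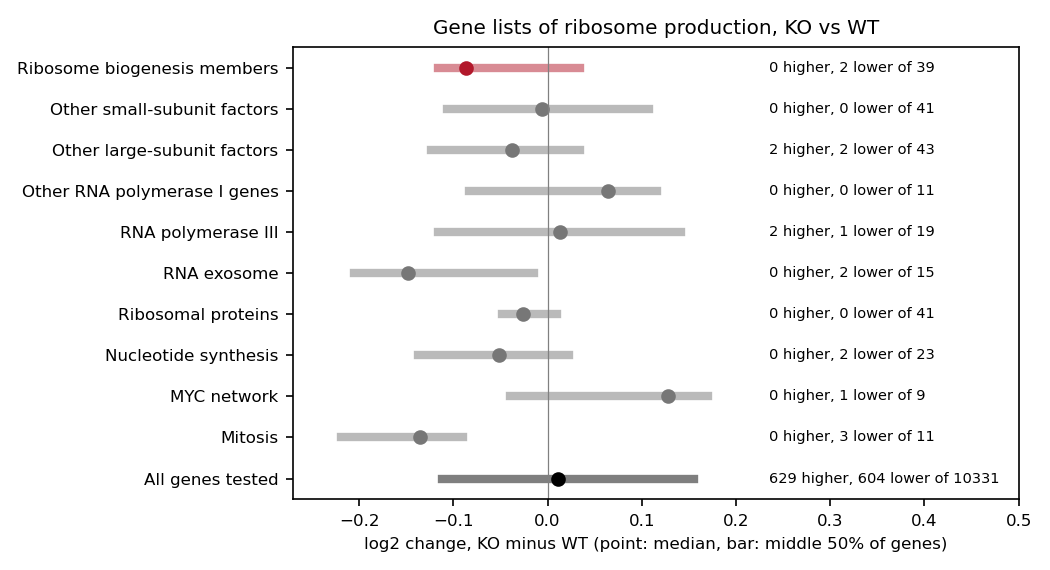
Median (point) and middle 50% (bar) of the KO vs WT log2 change for the 39 genes, 9 further lists and all genes tested, with the number called in each direction. Medians run from -0.15 (RNA exosome) to 0.13 (MYC network).

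Myc had signals of 615, 735 and 678 on KO arrays, 632, 554 and 651 on HET arrays and 608, 593 and 595 on WT arrays. The KO arrays lay above the WT arrays and overlapped the HET arrays, and the log2 change of 0.17 did not pass (SE 0.099, limma adjusted p = 0.305). Of 9 genes of the MYC network, Mxi1, which encodes a MYC antagonist that also pairs with MAX, fell by 0.64 (SE 0.14, adjusted p = 0.0108) and 8 did not pass. Omitting WT replicate 1 ended that call (adjusted p = 0.0503).

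Other markers moved with the KO genotype. Of 11 mitosis genes 3 fell (Ccna2 by 0.47, Ccnb2 by 0.23 and Aurka by 0.28; limma adjusted p = 1.41e-04, 0.0224 and 0.0261), the Ccnb2 and Aurka calls each being lost in 4 of 21 alternatives. The summed signal of the 11 genes was 47557 to 48855 on KO arrays, 52665.5 to 54490 on HET arrays and 52133 to 55226 on WT arrays. Of 6 marginal zone B cell markers 6 rose, with sums of 11801 to 14111 on KO arrays, 7514 to 8233 on HET arrays and 7547 to 7592 on WT arrays. Of 6 plasma cell markers 4 rose, with sums of 25402 to 27796 on KO arrays, 20997 to 22479 on HET arrays and 20319 to 21652 on WT arrays. Of 6 myeloid markers 3 rose, with sums over 8 markers of 1079 to 1396 on KO arrays, 654 to 1435 on HET arrays and 493 to 963 on WT arrays, and Itgam and Fcgr3 stayed under the median signal of each array. Of 5 T cell markers on the array, Cd3d, Cd3g and Cd4 did not reach it on any of the 9 arrays, and Cd8a, the 1 tested, had a log2 change of 0.37 that did not pass (limma adjusted p = 0.620). Of 5 GC B cell markers 1 rose (Fas by 0.30, adjusted p = 0.0131) and 1 fell (Gcsam, log2 change -1.36, adjusted p = 1.52e-05), with sums of 21519 to 22665 on KO arrays, 22517 to 23780 on HET arrays and 22162 to 24580 on WT arrays. The naive B cell marker Fcer2a fell by 0.76 (adjusted p = 2.12e-05) and the erythroid marker Car2 by 0.77 (adjusted p = 0.0319), each the 1 gene of its list that was tested. The part of these cells in the values of Bysl, Nhp2 and the other genes was not tested. As a measure of RNA quality, the Actb control signal at the 3' end over that at the 5' end was, in log2, 1.19 ± 0.068 in KO and 1.16 ± 0.078 in WT cells, and that of Gapdh 0.727 ± 0.020 in KO and 0.707 ± 0.019 in WT cells (SD, n = 3; two-sided exact permutation p = 0.70 and 0.30, where 0.10 is the smallest possible).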

How the data were processed

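MAS5 is named in the submitters' processing notes (version not given in the sources used here), and the deposited values are linear intensity signals, with 1 value for each probe set on each array. Each array had a mean of 500 after trimming 2% at each end. Of 45101 probe sets, 64 were controls, 34945 had 1 symbol in the platform annotation, 932 several and 9160 none. By Entrez identifier, 34741 matched RefSeq (GRCm38.p6), with 0 symbols changed.

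Signals were analysed as log2(signal + 2.09), the offset being the 10th percentile of all signals. Probe sets at or above their array's median on at least 3 of 9 arrays were kept, and the brightest per gene was used. Models were fitted over all 9 arrays and 10331 genes with limma 3.58.1 (lmFit, eBayes with trend) in R 4.3.3. Calls used a Benjamini-Hochberg adjusted p under 0.05 over all genes, two-sided. For arrays, precision is limited by their number. Replicates were numbered in deposition order. P-values measure the spread between these samples, which the sources describe both as single animals and as pools.

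Members and lists were chosen with earlier results of these data known. Values on every array are given for called members and, per role group, the largest absolute t in KO vs WT. Outside the members, Foxo1 and up to 3 called genes per list are named; Myc was added as background, and Wdr18 and the called GC, naive and erythroid markers and Cd8a after their values were seen. Of 225 genes in 9 lists, 213 were tested. The model was tested on simulated data. Exact permutation tests used scipy 1.17.1.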

Additional observations from a re-analysis of the deposited data

How the results depend on the processing

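No paired analysis was run, since the sample titles name no pairs and their numbers differ between genotypes. The lowest title number of each genotype belongs to KO replicate 3, HET replicate 1 and WT replicate 1. Set against each gene's own mean, the members' median was also lowest of its genotype on these arrays (-0.10, 0.017 and -0.022). With the median of all genes on each array taken off, this held for KO and WT but not for HET. HET replicate 2 was then the lowest HET array (0.0098, against 0.025 on HET replicate 1). Whether the arrays with the lowest title numbers share a batch was not tested. In KO vs WT, 0 members were called higher under all 21 alternatives. Centring each array on its median shifted all genes by a median of -0.11 and gave 11 members called lower (2 in the main setting), a members' median of -0.21, and 2081 genes called (398 higher and 1683 lower, against 629 and 604). Measured against the median of all genes, the members' median was -0.098 under both scalings. This distance could not differ, since centring moves every gene on an array by the same amount. When all probe sets of a gene were averaged, 0 members were called lower, the members' median was -0.029 and its distance from all genes -0.052. Without shared-suffix probe sets, and with eBayes without trend, 1 member was called. Leaving out each array in turn gave 0 to 2 members called lower, medians of -0.11 to -0.033, distances from all genes of -0.11 to -0.049 and 769 to 1180 genes called. The lower count of 769 came without WT replicate 2 or 3. In KO vs HET, centring gave 5 members called lower, a median of -0.17 and 293 genes higher and 1080 lower (471 and 460 in the main setting), restriction to the 2 groups gave 1 member, the mean of probe sets gave a median of -0.0041 and a distance of -0.025, and the fit without shared-suffix probe sets gave a median of -0.022. Leaving out each array gave 0 or 1 member called lower and 543 to 893 genes called. In HET vs WT, robust eBayes, array weights and restriction to the 2 groups called 3 genes, and leaving out each array 1 to 3. For HET against the midpoint, eBayes without trend called 31 genes, and leaving out each array 31 to 110. In KO vs WT, the called members, Foxo1 and the up to 3 called genes named per list kept their sign under every alternative. For Wdr18 and the called cell type markers this is not given here. Members' values that did not pass did turn in KO vs WT: 25 of 39 changed sign under at least 1 alternative. Centring turned 11 and averaging of probe sets 13. The members' median for HET against the midpoint (0.020) was -0.0098 with averaged probe sets and -0.00063 without KO replicate 3, and KO replicate 2 stood 0.0095 above all genes with quantile normalization (-0.031 in the main setting). The cause of these differences was not tested. In KO vs WT, Nhp2 was called under 13 and Bysl under 16 of 21 alternatives.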
